A study of Mus musculus with 6 samples.

Results

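Transcript levels of 10 genes of the bone morphogenetic protein (BMP) pathway were compared between the mouse mammary carcinoma lines 4T1 and 4TO7. The genes were the ligands Bmp2, Bmp4 and Bmp7, the receptors Bmpr1a and Bmpr2, the membrane pseudoreceptor Bambi, and the secreted antagonists Grem1, Nog, Dand5 and Chrd. They were chosen by symbol from the 47729 genes of the deposited table, and all 10 were found once. Dand5, also called Coco, is known from work on dormant 4TO7 cells in the lung as a factor that lets them grow again. RNA of untreated cultures was sequenced, with 3 libraries of 4T1 and 3 of 4TO7. Both lines come from a spontaneous mammary tumour of BALB/c mice and were grown in DMEM with serum, per the labels, which leave unsaid how far the cultures of a line were separate. The p-values below therefore measure the spread between these libraries, which may be technical. As background, 4T1 cells form metastases in distant organs, whereas 4TO7 cells spread but seldom grow out.

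BMPs are secreted dimers that assemble a complex of type I and type II serine/threonine kinase receptors on the cell surface. The type I receptor then phosphorylates SMAD1, SMAD5 and SMAD9, which enter the nucleus with SMAD4 and switch on genes such as those of the ID family. Secreted antagonists bind the ligand outside the cell and keep it from the receptors. In the mammary gland the pathway takes part in development, and in breast cancer it has been linked both to growth and to dormancy.

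The libraries held 33605566 to 39072639 reads assigned to genes. Values are normalised counts, in which each library's reads are divided by 1 size factor (0.954 to 1.07), so that 1 normalised count is close to 1 read. The first principal component of the tested genes set the lines apart (89.9% of the variance), and 4TO7 replicate 2 stood off on the second (5.27%). 4T1 replicate 1 stood apart by transcript length, as described with the receptors. Calls of members and pathway genes that change without it are given beside the gene. Such calls are not given for the cell type markers or for the genes next to Bmp7. Differences are 4T1 minus 4TO7 on the scale log2(normalised count + 1), tested with limma over the 14276 genes that reached 10 in at least 3 of the 6 libraries and adjusted with the Benjamini-Hochberg method at 0.05. Of these genes 49.0% passed in either direction, 25.1% as higher in 4T1 and 23.9% as higher in 4TO7. The epithelial keratins Krt8 and Krt18 were read in every library, at 8118 or more, and both passed as higher in 4T1 (2.20-fold and 4.64-fold). Epcam (15.7 to 33.8), Cdh1 (139 to 221) and Krt14 (0 to 1.05) were low in 4TO7, and Krt5 had at most 1 read in any library. Epcam, Cdh1 and Krt14 also passed as higher in 4T1, by far more than the keratins Krt8 and Krt18. Their means were 16980, 19351 and 1363 in 4T1, against 23.7, 170 and 0.349 in 4TO7. Markers of other cells were present in part. The 7 fibroblast markers summed to 590 to 1372 in 4T1 and 1721 to 7522 in 4TO7, mostly Pdgfra, with Lum, Col3a1 and Thy1 at 0 reads. Pdgfra and Pdgfrb passed as higher in 4TO7 (5.89-fold and 3.85-fold). The 5 leukocyte markers summed to 251 to 470.1 in 4T1 and 93.6 to 158 in 4TO7, mostly Cd68, with Adgre1 and Cd3e at 0 reads. Cd68 and Csf1r passed as higher in 4T1 (2.75-fold and 9.21-fold). The 4 endothelial markers summed to 12.0 to 18.2 in 4T1 and 9.43 to 14.0 in 4TO7. The part of these markers in the results below was not tested, and in bulk RNA fewer cells of a type and less RNA per cell cannot be told apart.

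4 of the 10 genes were expressed at a level that allowed a test: Bmp7, Bmpr1a, Bmpr2 and Dand5. Bmp7 was higher in 4T1 by about 3 orders of magnitude, and it was the 1 member that passed, against a background of 25.1% of tested genes called higher in 4T1. The other 3 tested members were read in both lines and did not pass. The values of the lines did not overlap for Bmp7 and Dand5, 2 of 4 tested members and both with 4T1 higher. Over all tested genes 29.8% showed no overlap with 4T1 higher, and 58.4% showed none in either direction. The remaining 6 genes had at most 8 reads in all 6 libraries together, and Bmp4 and Grem1 had 0. Of all protein-coding genes, 26.8% had 0 reads in every library.

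**Figure D1:**
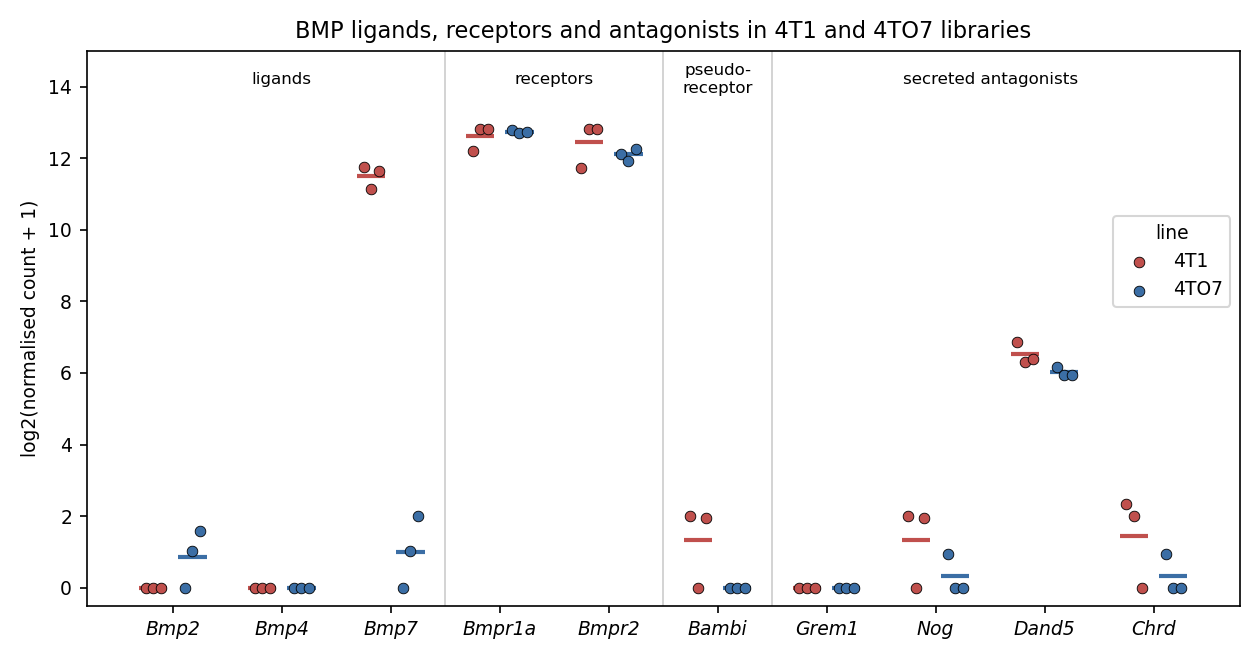
The plot of member values shows each library as a point and the mean of the log2 values of a line as a bar, with log2(normalised count + 1) on the vertical axis and genes grouped by role. Bmp7 stands near the receptors in 4T1 and near 0 in 4TO7, while Bmpr1a, Bmpr2 and Dand5 lie well above 0 in both lines.

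Among the ligands, Bmp7 was the one expressed. Bmp7 encodes a BMP that signals through several type I and type II receptors and is known for roles in kidney and bone (ENSMUSG00000008999, GRCm38 chr2:172868012-172940321, minus strand). It had 3444, 2255 and 3174 normalised counts in 4T1 replicates 1 to 3, against 0, 1.05 and 2.99 in 4TO7 replicates 1 to 3. All 4T1 libraries were high and all 4TO7 libraries were near 0, with no overlap. The means were 2958 ± 624 in 4T1 and 1.34 ± 1.51 in 4TO7 (SD, n = 3 each). The log2 difference was 10.50 ± 0.47 (SE; limma adjusted p = 9.07e-07), the 19th highest toward 4T1 of the 14276 genes. In reads this was 8965 in 4T1 and 4 in 4TO7, a ratio of 2239 with an exact 95% interval of 874 to 8219.6 that covers counting error only. Since 3 of these 4 reads came from 4TO7 replicate 3, the ratio of means was 2199.7 over all libraries and 5644 without that library. In the authors' deposited table, whose fold changes run 4TO7 over 4T1, Bmp7 stood at -11.13 on the log2 scale with an adjusted p of 1.56e-46.

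Bmp2 and Bmp4, closely related ligands that prefer Bmpr1a as their type I receptor, were almost absent. Bmp2 (ENSMUSG00000027358, chr2:133552159-133562885) had 0 reads in every 4T1 library and 0, 1 and 2 reads in 4TO7 replicates 1 to 3. Bmp4 (ENSMUSG00000021835, chr14:46383520-46390669) had 0 reads in all 6 libraries, and an antisense gene, Gm15217, shares 89 of its exonic bases. A count of 0 over the 3 libraries of a line allows up to 3 of the 114704105 reads of 4T1 or of the 104742527 reads of 4TO7, for counting error only. Levels below that were not detectable at this depth, and no fold was formed for either gene.

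Of 10 other ligands of the family, none reached the level for a test (limma gave no value), and 3 (Bmp3, Bmp10 and Gdf6) had 0 reads in all libraries. Bmp5, a ligand of the same subgroup as Bmp7 and named here after its values were seen, was read in 4TO7 and not in 4T1. It had 0 normalised counts in each 4T1 library, against 25.3, 6.29 and 17.9 in 4TO7 replicates 1 to 3. Its 51 reads in 4TO7 made it at least 17.0-fold higher there, taking the floor of 3 reads over the 4T1 libraries. Per kilobase of the longest coding transcript, the level of Bmp5 in 4TO7 was 4.31 normalised counts, far under the 806 of Bmp7 in 4T1.

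Genes next to Bmp7 were examined to place its difference on the chromosome, using the 3 nearest tested protein-coding genes on each side; this set was chosen after the value of Bmp7 was seen. Spo11, a meiotic recombination enzyme that starts 37.4 kb beyond the upstream end of Bmp7, was also higher in 4T1, at 58.3 ± 15.5 normalised counts in 4T1 and 3.35 ± 1.28 in 4TO7 (limma adjusted p = 7.83e-05). Rae1, an mRNA export factor at 59.8 kb, had 3094 ± 469 in 4T1, against 2548 ± 680.4 in 4TO7 (adjusted p = 0.258, not called). Rbm38, an RNA-binding protein at 80.2 kb, was lower in 4T1, at 777 ± 239.7 in 4T1 and 1407 ± 473 in 4TO7 (adjusted p = 0.0428, near the threshold). The ratio of 4TO7 over 4T1 for Rbm38 was 1.81 over all libraries. It ranged from 1.46 without 4TO7 replicate 2 to 2.03 without 4T1 replicate 1. On the other side, Tfap2c, Rtf2 and Cstf1 lay 309 kb to 486 kb away, with log2 differences of 0.43, -0.71 and -0.36. Of these 3, Rtf2 passed as higher in 4TO7 (adjusted p = 0.00266). Of the 6 neighbours, 1 passed as higher in 4T1 and 2 as higher in 4TO7, close to the 49.0% of all tested genes that passed in either direction.

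Before a BMP acts, its precursor is cut by proprotein convertases. Of 6 genes for processing, 3 were tested and all 3 passed as higher in 4T1, against 25.1% of all tested genes. Pcsk6, a convertase known to cut TGF-beta family precursors, had 287, 373 and 266 normalised counts in the 4T1 libraries and 0 in each 4TO7 library. With 934 reads against 0 it was at least 311-fold higher in 4T1 (limma adjusted p = 2.30e-07). Furin, the ubiquitous convertase, had 7194 ± 708 in 4T1 and 4229.6 ± 502 in 4TO7, a ratio of 1.70 (limma adjusted p = 0.00266). Bmp1, a metalloprotease that cuts chordin and is no BMP despite its name, was 1.42-fold higher in 4T1 (adjusted p = 0.0259), a call lost under 6 of 15 alternatives. These were equal totals per sample, quantile normalisation, the fit without trend, and the fits without 4T1 replicate 1, 4T1 replicate 3 or 4TO7 replicate 1 (adjusted p 0.0517 to 0.109).

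The type I receptor Bmpr1a (ALK3), which binds Bmp2 and Bmp4 strongly, was among the better expressed genes, above 91.5% of tested genes by mean normalised count. It lies at chr14:34410734-34503341 (ENSMUSG00000021796), where the antisense gene Gm17110 shares 290 exonic bases. Its values were 4662, 7196 and 7271 in 4T1 and 7000.05, 6618 and 6841 in 4TO7. 4T1 replicate 1 was low, the other 4T1 libraries lay above all of 4TO7, and the lines overlapped. The means were 6376 ± 1485 in 4T1 and 6819.8 ± 192 in 4TO7 (SD, n = 3 each). The log2 difference of -0.13 ± 0.19 (SE; 95% interval -0.55 to 0.30) did not pass (limma adjusted p = 0.601). Without 4T1 replicate 1 it turned to 0.09 ± 0.10 and did not pass either (adjusted p = 0.526).

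Bmpr2 encodes the type II receptor specific to BMPs (ENSMUSG00000067336, chr1:59763400-59879014). It had 3358, 7228 and 7253 normalised counts in 4T1 and 4471, 3885 and 4909.9 in 4TO7. 4T1 replicate 1 lay below every 4TO7 library, while 4T1 replicates 2 and 3 lay above all of them. The means were 5946 ± 2242 in 4T1 and 4422 ± 514 in 4TO7 (SD, n = 3 each). Over all 6 libraries the log2 difference was 0.35 ± 0.29 (SE; 95% interval -0.31 to 1.01; limma adjusted p = 0.346). Without 4T1 replicate 1 it was 0.72 ± 0.13 and passed (adjusted p = 0.00827), so that members called higher in 4T1 numbered 2 rather than 1. No other single library changed the call of Bmpr2 when left out.

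4T1 replicate 1 stood apart in a way that followed transcript length. Protein-coding genes whose longest coding transcript was at least 8 kb were lower in that library than in 4T1 replicates 2 and 3 by a median of -0.52 on the log2 scale (663 genes), and those of 4 to 8 kb by -0.22 (3504 genes). Genes under 2 kb were higher there by 0.22 (2931 genes), and those of 2 to 4 kb by 0.04 (4874 genes). In the 4TO7 libraries the same medians stayed between -0.06 and 0.07. The members followed this order in 4T1 replicate 1, with Bmpr2 (12899 bases) at -1.11, Bmpr1a (5956 bases) at -0.63, Bmp7 (3670 bases) at 0.36 and Dand5 (1584 bases) at 0.51. Each value is the log2 level against the mean of the other 2 libraries of the line. Every one of these members deviated further than the median of its length class. The part of transcript length in the comparison of lines was not tested.

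**Figure D2:**
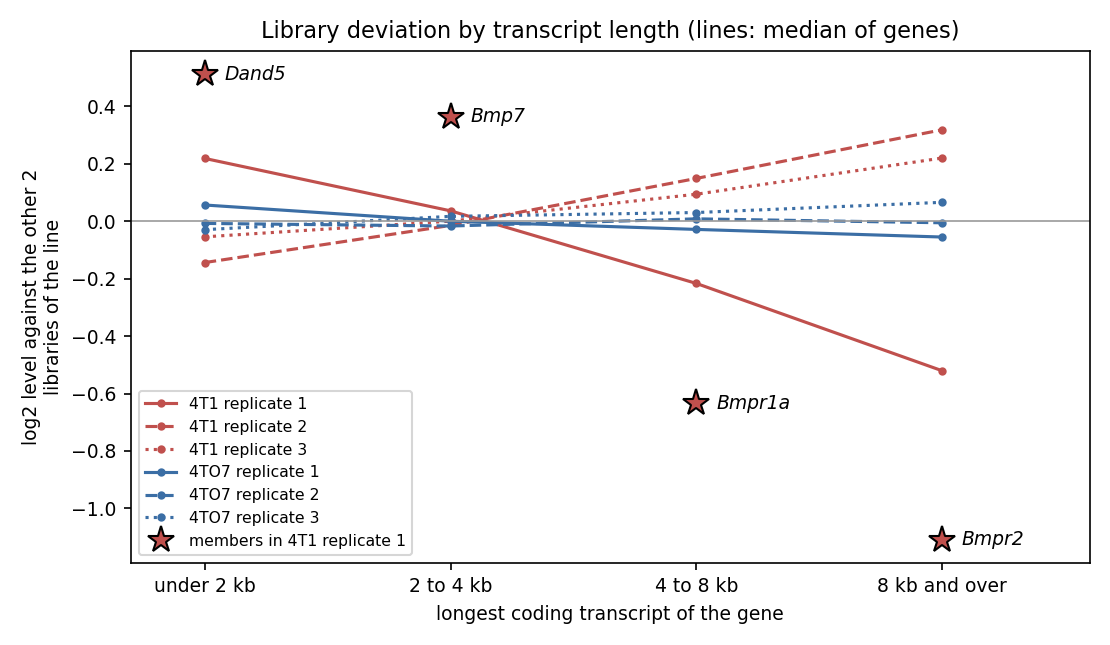
The plot of library deviation by transcript length gives, for each library, the median log2 level of genes against the other 2 libraries of its line (lines) over 4 classes of transcript length, with the tested members in 4T1 replicate 1 as stars. 4T1 replicate 1 slopes from 0.22 under 2 kb to -0.52 at 8 kb and over, and Bmpr2 lies lowest at -1.11.

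A ratio within a library was formed because both receptors are long. It did not even out 4T1 replicate 1, where Bmpr2 deviated further than Bmpr1a (-1.11 against -0.63). Neither this ratio nor the receptor shares below were part of the plan. Normalised counts of Bmpr2 over those of Bmpr1a were 0.720, 1.00 and 0.997 in the 3 libraries of 4T1, against 0.639, 0.587 and 0.718 in those of 4TO7. The mean was 0.907 ± 0.162 in 4T1 and 0.648 ± 0.0658 in 4TO7 (SD, n = 3 each), with no overlap but with 4T1 replicate 1 barely above the highest 4TO7 library. The two-sided exact permutation test gave p = 0.1, the smallest that 3 against 3 samples allow. A ratio does not say which of the receptors differs. The Bmpr2 transcript is the longer, and the part of transcript length in this ratio was not tested.

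Other receptors were compared per kilobase of the longest coding transcript, within their class. Among type I receptors, Bmpr1a made up 67.3% ± 4.60 of the summed level in 4T1 and 70.8% ± 2.32 in 4TO7 (SD, n = 3 each; two-sided exact permutation p = 0.4). Acvr1 (ALK2), a type I receptor used by Bmp7, made up nearly all of the rest, with 1666 ± 78.4 normalised counts in 4T1 and 1546 ± 132 in 4TO7 (log2 difference 0.11, limma adjusted p = 0.527; -0.02 with equal totals per sample). Bmpr1b, the third BMP type I receptor, had 5 reads in 4T1 and 1 in 4TO7.

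Among type II receptors, Acvr2a and Acvr2b, which serve activins and also bind Bmp7, both passed as higher in 4TO7, 2 of the 3 tested genes in the receptor list, where 23.9% of all tested genes did so. Acvr2a had 692 ± 166 in 4T1 and 1143 ± 107 in 4TO7 (log2 difference -0.75 ± 0.20, limma adjusted p = 0.0164). Acvr2b had 78.7, 136 and 147 normalised counts in 4T1, against 282, 257 and 364 in 4TO7, with no overlap (log2 difference -1.35 ± 0.29, adjusted p = 0.00544). Bmpr2 made up 69.3%, 74.6% and 76.5% of the summed type II level in 4T1 replicates 1 to 3, against 56.2%, 50.1% and 54.6% in 4TO7 replicates 1 to 3. The shares did not overlap (two-sided exact permutation p = 0.1, the smallest possible), and the low 4T1 replicate 1 still lay above every 4TO7 library. A share does not say which of the receptors differs. Bmpr2 itself stood at 260 normalised counts per kb in 4T1 replicate 1, under the 301 to 381 of the 4TO7 libraries. The part of transcript length in these shares was not tested.

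**Figure D3:**
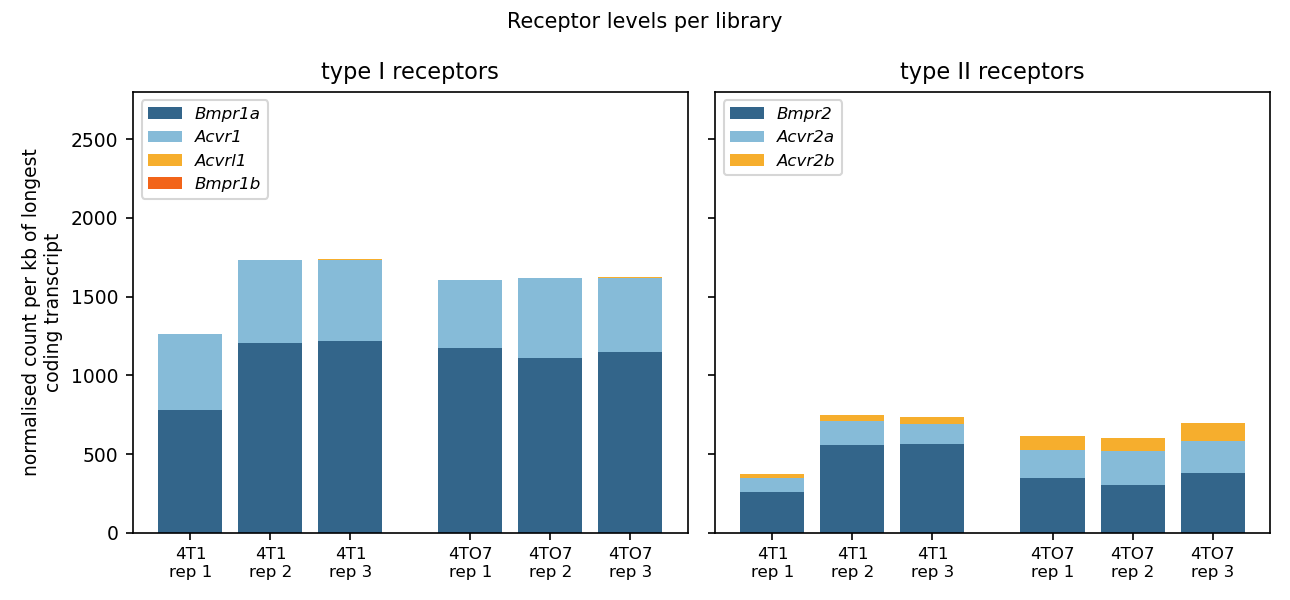
The plot of receptor levels stacks, for each library, normalised counts per kb of the longest coding transcript for type I receptors (left panel) and type II receptors (right panel). Bmpr1a leads type I in both lines, while the Acvr2a and Acvr2b parts of the type II bars are larger in 4TO7.

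Among the tested members the level per kilobase ran in this order in 4T1: Bmpr1a at 1071 ± 249, Bmp7 at 806 ± 170, Bmpr2 at 461 ± 174 and Dand5 at 58.0 ± 12.7 normalised counts per kb (SD, n = 3). Bmpr1a and Bmp7 overlapped between libraries, since 4T1 replicate 1 had 938.5 for Bmp7 and 783 for Bmpr1a. Bmp7 lay above Bmpr2 in every 4T1 library, where the lowest Bmp7 value was 614 and the highest Bmpr2 value 562. In 4TO7 the order was Bmpr1a at 1145 ± 32.2, Bmpr2 at 343 ± 39.9, Dand5 at 40.5 ± 3.77 and Bmp7 at 0.366 ± 0.413, with no overlap between neighbours.

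Coreceptors bring BMPs to their receptors, and 4 of 5 tested passed, 1 as higher in 4T1 and 3 as higher in 4TO7, where 25.1% and 23.9% of all tested genes did so. Rgma, a repulsive guidance molecule that acts as a BMP coreceptor, had 429, 385 and 413 normalised counts in 4T1 and 5006, 3595 and 5516 in 4TO7. Every 4TO7 library lay far above 4T1, a ratio of 11.5 (log2 difference -3.50 ± 0.18, limma adjusted p = 1.95e-06). Neo1, neogenin, the receptor of the RGM proteins, was 2.85-fold higher in 4TO7 (7565 ± 1314 in 4T1 and 21596 ± 788 in 4TO7, adjusted p = 8.09e-05). Rgmb, an RGM protein named after its values were seen, was 1.32-fold higher in 4TO7, a call near the threshold (adjusted p = 0.0442) that was lost without any 1 of the 6 libraries. Eng, endoglin, a coreceptor best known in endothelium, went the other way with 2681 ± 286 in 4T1 and 53.1 ± 28.4 in 4TO7. This was a ratio of 50.5 (limma adjusted p = 1.45e-05). The endothelial markers listed above were near 0 in both lines, and which cells the Eng reads came from was not tested.

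Bambi encodes a membrane protein that resembles a type I receptor but lacks a kinase domain and dampens signalling (ENSMUSG00000024232, chr18:3507923-3516404). It had 3, 0 and 3 reads in 4T1 and 0 reads in each 4TO7 library. With 6 reads in 4T1 and 0 in 4TO7 no fold was formed. 4T1 replicate 2 equalled 4TO7, and the two-sided exact permutation test gave p = 0.4.

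Of the 4 secreted antagonists, Dand5 was the one with a measurable level. Dand5 encodes a DAN domain protein whose frog counterpart binds BMP, Nodal and Wnt ligands (ENSMUSG00000053226, chr8:84815405-84822823, minus strand). It had 115, 77.7 and 83.0 normalised counts in 4T1 and 71.1, 60.8 and 60.7 in 4TO7. 4T1 replicate 1 was highest, and every 4T1 library lay above every 4TO7 library by a narrow margin. The means were 91.9 ± 20.2 in 4T1 and 64.2 ± 5.98 in 4TO7 (SD, n = 3 each). The log2 difference of 0.49 ± 0.25 (SE; 95% interval -0.08 to 1.07) did not pass (limma adjusted p = 0.138) and was 0.32 without 4T1 replicate 1 (adjusted p = 0.324). Counted in reads, 278 in 4T1 and 195 in 4TO7 gave a ratio of 1.42 with an exact 95% interval of 1.18 to 1.72, which leaves out the spread between libraries. The authors' deposited table gave Dand5 an adjusted p of 0.166. Dand5 stood above 21.2% of tested genes by mean.

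Grem1, Nog and Chrd were at or near 0. Grem1, a DAN domain antagonist of Bmp2, Bmp4 and Bmp7 (ENSMUSG00000074934, chr2:113746164-113758646), had 0 reads in all 6 libraries. Nog, noggin (ENSMUSG00000048616, chr11:89300638-89302332), had 3, 0 and 3 reads in 4T1 and 1, 0 and 0 in 4TO7, a ratio of 5.99 with an exact interval of 0.727 to 276. Chrd, chordin (ENSMUSG00000006958, chr16:20733127-20742384), had 4, 3 and 0 reads in 4T1 and 1, 0 and 0 in 4TO7, a ratio of 6.99 with an interval of 0.898 to 315; the antisense gene Thpo shares 239 of its exonic bases. Both intervals include no difference, and both genes overlapped between lines with a two-sided exact permutation p of 0.4. A difference in these antagonists was not detectable at this depth.

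The promoters of Dand5, the antagonist that was read, and of Grem1 and Bmp4, which were not, are printed to show how these sequences range among members. Each is the 250 bases before the RefSeq transcription start (GRCm38.p6), 5′ to 3′ on the gene's own strand, with CpG dinucleotides in capitals.
Dand5 (chr8:84822824-84823073, minus strand): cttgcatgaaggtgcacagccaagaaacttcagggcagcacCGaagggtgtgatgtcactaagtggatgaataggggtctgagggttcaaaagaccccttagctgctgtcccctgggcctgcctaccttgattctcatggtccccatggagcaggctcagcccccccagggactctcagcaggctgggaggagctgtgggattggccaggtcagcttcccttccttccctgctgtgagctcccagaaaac
Grem1 (chr2:113758649-113758898, minus strand): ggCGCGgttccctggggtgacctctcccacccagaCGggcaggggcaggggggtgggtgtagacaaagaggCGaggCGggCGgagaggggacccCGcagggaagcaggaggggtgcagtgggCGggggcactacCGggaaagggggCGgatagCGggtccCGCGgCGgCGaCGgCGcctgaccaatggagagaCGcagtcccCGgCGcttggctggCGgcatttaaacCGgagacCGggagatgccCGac
Bmp4 (chr14:46390670-46390919, minus strand): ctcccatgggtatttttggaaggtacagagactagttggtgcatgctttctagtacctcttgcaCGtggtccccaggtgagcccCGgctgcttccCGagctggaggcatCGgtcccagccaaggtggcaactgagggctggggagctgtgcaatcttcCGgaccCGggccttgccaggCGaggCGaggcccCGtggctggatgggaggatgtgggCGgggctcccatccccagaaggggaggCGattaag
Dand5 held 1 CpG, a number that 18.8% of 32851 such promoter windows do not exceed. Grem1 held 24, reached by 12.0% of windows, and Bmp4 held 11, against a median of 6 over all windows. The windows of the well expressed Bmpr1a and Bmpr2 held 36 and 22, and that of Chrd held 28. A relation of CpG number to reads was not tested on these 6 genes. The Bmpr1a and Bmpr2 windows lie within the annotated gene spans given above, inside a longer transcript, and not upstream of them. GGCGCC, a GC-rich palindrome to which SMAD1 and SMAD5 are known to bind and which overlaps a CpG, occurred in 9.59% of windows. It was found 1 time each in Grem1, Chrd, Bmpr1a and Bmpr2 and not in the Dand5 and Bmp4 windows. RefSeq entries were matched for 6 of the 10 members; Bmp2, Bmp7, Nog and Bambi had none in the table. These counts describe sequence and say nothing of methylation or binding.

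**Figure D4:**
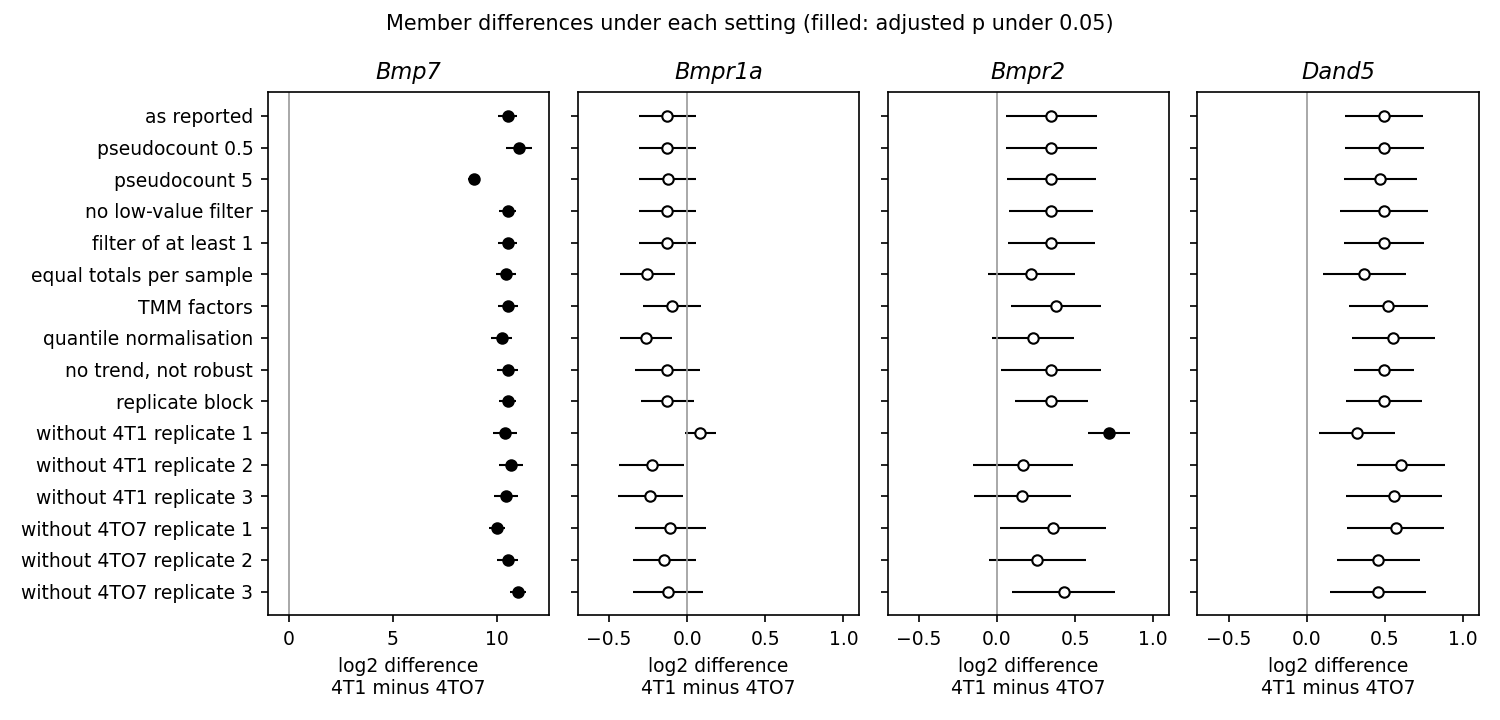
The plot of member differences shows the log2 difference, 4T1 minus 4TO7, with its SE for the 4 tested members under each setting (rows), filled where the adjusted p was under 0.05; the Bmp7 panel has its own scale. Bmp7 is filled in every row, Bmpr2 in the row without 4T1 replicate 1 alone, and Bmpr1a crosses 0 there.

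The wider pathway was described from a list of 62 other genes given by role, of which 34 were tested. Of these, 10 passed as higher in 4T1, where the background was 25.1% of tested genes, and 11 as higher in 4TO7, where it was 23.9%. The median log2 difference was 0.10, against 0.03 over all tested genes. Among antagonists outside the 10 members, 2 of 5 tested passed, both as higher in 4T1, where 25.1% of all tested genes did so. Twsg1, which binds BMPs with chordin and is named after its values were seen, missed the threshold (log2 difference -0.38, limma adjusted p = 0.0522) and passed as higher in 4TO7 with equal totals per sample (0.0152), quantile normalisation (0.0118) or without 4TO7 replicate 2 (0.0322). Nbl1, another DAN family antagonist, had 495, 488 and 435 normalised counts in 4T1 and 0, 0 and 6.97 in 4TO7 (log2 difference 7.89 ± 0.74, limma adjusted p = 5.94e-05); its 7 reads in 4TO7 all came from replicate 3. Fstl3, a follistatin-like binder of activin and BMP, was 3.86-fold higher in 4T1 (1072 ± 241 in 4T1 and 278 ± 26.3 in 4TO7, adjusted p = 0.000113). Fst, follistatin, had 104 ± 31.5 in 4T1, against 117 ± 75.8 in 4TO7 (adjusted p = 0.963, not called), and 4TO7 replicate 2 alone held the 4TO7 mean above that of 4T1.

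Of 4 SMAD transducers 1 passed, as higher in 4T1, against 25.1% of all tested genes. Smad1 had 1938, 2172 and 2456 normalised counts in 4T1, against 936, 875 and 828 in 4TO7, with no overlap. It was 2.49-fold higher in 4T1 (log2 difference 1.31 ± 0.15, limma adjusted p = 0.000167). Smad5, which carries the same signal, had 5943 ± 780.2 in 4T1, against 7046 ± 578 in 4TO7 (adjusted p = 0.177, not called). Smad4, the common partner, named after its values were seen, had 4926 ± 715 in 4T1, against 4049.91 ± 43.1 in 4TO7 (log2 difference 0.27, adjusted p = 0.148). Without 4T1 replicate 1 it passed as higher in 4T1 (0.39, adjusted p = 0.0266), which makes 2 of 4. Among 6 intracellular inhibitors 1 passed in each direction, where 25.1% of all tested genes passed as higher in 4T1 and 23.9% as higher in 4TO7. Lemd3, which binds SMADs at the nuclear membrane, passed as higher in 4T1 without 4T1 replicate 1 and under no other alternative (adjusted p = 0.0170, against 0.18 with all libraries). Smurf2, a ubiquitin ligase for SMADs and receptors, was 1.82-fold higher in 4T1 (adjusted p = 0.00229). Smad6, an inhibitor induced by BMP, was 2.08-fold higher in 4TO7 (124 ± 19.9 in 4T1 and 257 ± 90.3 in 4TO7, adjusted p = 0.0305), a call lost without any library except 4TO7 replicate 2 (adjusted p up to 0.109). Smad7, which inhibits both BMP and TGF-beta signalling, had 1546 ± 33.3 in 4T1 and 1185 ± 139 in 4TO7 (adjusted p = 0.0516; 0.0363 with TMM scaling).

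Of 8 tested genes listed as targets, 2 passed as higher in 4T1 and 5 as higher in 4TO7, where 25.1% and 23.9% of all tested genes did so. The ID genes, direct targets that encode inhibitors of basic helix-loop-helix factors, did not share a direction. Id1 had 362, 336 and 363 normalised counts in 4T1, against 545, 496 and 665 in 4TO7 (log2 difference -0.67 ± 0.18, limma adjusted p = 0.0144; 0.0686 without 4TO7 replicate 3). Id2 had 963, 522 and 974 in 4T1, against 1584, 1612 and 2446 in 4TO7 (-1.22 ± 0.28, adjusted p = 0.00751). Both were higher in 4TO7 with no overlap. Id3 was 1.38-fold higher in 4T1 (1636 ± 176 in 4T1 and 1189.7 ± 120.3 in 4TO7; adjusted p = 0.0346), a call lost under 8 of 15 alternatives, among them those without 4T1 replicate 1, 4T1 replicate 3, 4TO7 replicate 1 or 4TO7 replicate 3 (adjusted p 0.0767 to 0.133). Id4, named after its values were seen, overlapped between lines and was not called (log2 difference 0.55 ± 0.35, adjusted p = 0.227). Runx2, a bone transcription factor named after its values were seen, had 1286, 2122 and 1967 normalised counts in 4T1, against 886, 1003 and 858 in 4TO7. It was higher in 4T1 with no overlap (log2 difference 0.94 ± 0.21, adjusted p = 0.00613). Gata3, a luminal transcription factor also named after its values were seen, was 1.39-fold higher in 4TO7 (adjusted p = 0.0105; 0.0522 without 4TO7 replicate 1). Gata2, a haematopoietic transcription factor, was 10.5-fold higher in 4TO7 (38.4 ± 4.95 in 4T1 and 404 ± 28.0 in 4TO7, adjusted p = 6.53e-06). Hey1, a Notch and BMP target, was 3.61-fold higher in 4TO7 from few reads (8.57 ± 0.944 in 4T1 and 30.9 ± 4.13 in 4TO7, adjusted p = 0.00146). These genes also answer to other pathways, and which signal set their levels was not tested.

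**Figure D5:**
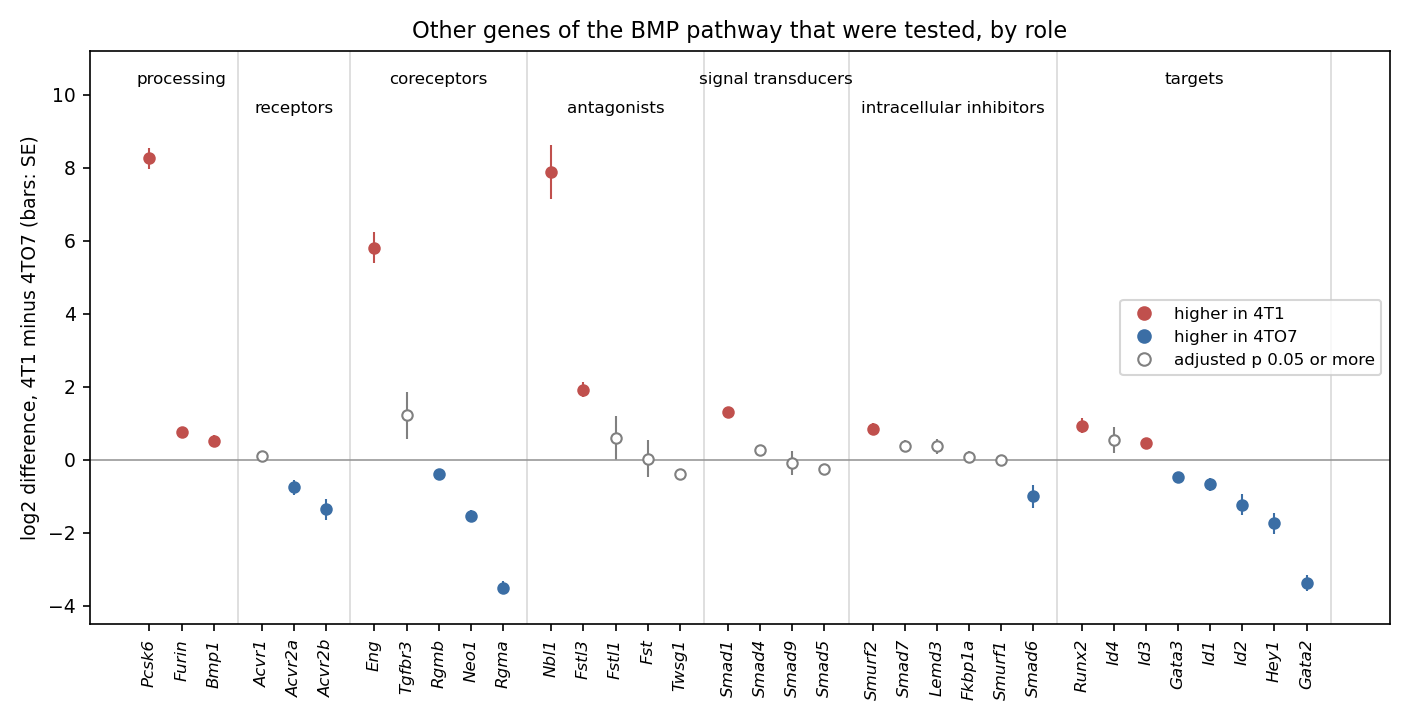
The plot of the wider pathway shows the log2 difference, 4T1 minus 4TO7, with its SE for the 34 tested genes by role. Processing genes all lie above 0 and the 2 called activin receptors below it, while coreceptors and targets lie on both sides.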

How the data were processed

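Total RNA of 4T1 and 4TO7 cells, 3 libraries per line, was extracted on columns and sequenced after a standard Illumina preparation, per the labels' protocols. STAR 2.5, featureCounts 1.5, DESeq2 (version not given) and GRCm38 stand in the list of tools and builds, per the submitters' processing notes; the annotation release, strand setting and read filters are not given in the sources used here. The authors deposited 1 table with a normalised signal per library (counts normalised to library size, per the file name) and their own log2 fold change, test score, p-value and adjusted p. Every nonzero value was a whole multiple (within 1e-06) of the smallest nonzero value of its library, from which reads and depth were read.

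Values as deposited were put on the scale log2(value + 1), genes reaching 10 in at least 3 of 6 libraries were kept, and group means were tested using limma 3.58.1 under R 4.3.3 (group alone, intensity trend, robust), two-sided, with Benjamini-Hochberg adjustment over all kept genes. Single values were compared with exact permutation tests and read ratios with exact (Clopper-Pearson) 95% intervals. The limma fit was tested on simulated data with few changed genes, the same dispersion for every gene and no length pattern, a simpler setting than these data. Positions and lengths are from GENCODE M21 (GRCm38), which may differ from the authors' annotation. Promoter sequences are from RefSeq (GRCm38.p6). Alternatives changed the pseudocount, filter, scaling (TMM factors by a function written for this purpose), variance model and libraries, and added the replicate number as a block.

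The members and lists were chosen with earlier results of these data known. All 10 members are named. Of the list, up to 3 genes per role with the largest difference among those that passed are named, with Id1, Id2, Id3, Smad1, Smad5, Smad6, Smad7, Acvr1, Bmpr1b and Fst whatever their values; others were chosen after their values were seen. 1 further marker chosen for the cell type lists is not used here.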

Additional observations from a re-analysis of the deposited data

How the results depend on the processing

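Over 15 alternatives Bmp7 stayed higher in 4T1 and past the threshold, with log2 differences from 8.87 (pseudocount 5) to 11.03 (pseudocount 0.5) and limma adjusted p from 1.26e-09 to 0.000107. Dand5 stayed positive and did not pass in any (0.32 to 0.60, adjusted p 0.0747 to 0.324). Leaving out each library in turn gave 0.16 to 0.72 for Bmpr2 and -0.24 to 0.09 for Bmpr1a; the highest value of each, a call for Bmpr2 and a change of sign for Bmpr1a, came without 4T1 replicate 1, where Bmpr1a stood at 0.085 (adjusted p 0.526), Bmpr2 at 0.72 (adjusted p 0.00827) and 2 members were called higher in 4T1 in place of 1 (range 1 to 2). Bmpr1a and Bmpr2 kept their sign and did not pass under the other 14 alternatives. Pathway genes called higher in 4T1 ranged from 8 to 11 and those called higher in 4TO7 from 8 to 12; over all genes the counts were 2751 to 4162 and 2491 to 4067. Equal totals per sample moved the median difference of all genes to -0.10, from 0.03, and changed no call of a member. Same-numbered libraries did not deviate together in every pair (r = -0.01, 0.27 and 0.33 across 14276 genes for numbers 1, 2 and 3). 4T1 replicate 1 correlated best with 4TO7 replicate 2 (0.11), and 4T1 replicates 2 and 3 with the 4TO7 library of their own number. These values do not settle whether same-numbered libraries were handled together. The replicate block gave the same 1 member called higher in 4T1 (Bmp7 at 10.50, Bmpr2 at 0.35, Bmpr1a at -0.13 and Dand5 at 0.49) and 3990.0 and 3760.0 genes called over all. edgeR and DESeq2 on reads were planned and not run. Depth limits the 6 members with at most 8 reads, where no difference between lines could be shown.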

Other observations

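Among untested pathway genes other than Bmp5, 2 had more than 3 reads in 1 line and 0 in the other. Dlx2, a homeobox gene, had 24 reads in 4T1 and 0 in 4TO7, at least 7.99-fold higher in 4T1. Chrdl2, a chordin-like antagonist, had 0 reads in 4T1 and 5 in 4TO7, too few for a fold. These genes were chosen after their values were seen.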
